A study of Homo sapiens with 9 samples.

Results

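The RNAs described here are 10 long non-coding RNAs (lncRNAs), taken by their symbols from a table of 14839 genes. They are MALAT1, NEAT1, GAS5, SNHG1, SNHG6, SNHG8, SNHG12, TUG1, OIP5-AS1 and H19, and each had 1 row. The table holds polyA RNA sequencing of MP41, a cell line derived from a human uveal melanoma (a melanoma of the eye) that carries a mutated GNA11. The cells were transfected, with a lipid reagent, with 66 nM of a synthetic double-stranded RNA that mimics the microRNA miR-16, or with the control mimic miR-CTR, and RNA was taken at 6, 12, 24 and 48 h. A library taken at 0 h completed the series, so 9 conditions were measured with 1 library each, and MP41 is a single cell line. The title of the 0 h library names the control mimic, and it is read here as untransfected cells at the start. The comparison asks how these RNAs behave once miR-16 is supplied, and how they behave over the same hours with the control mimic.

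MicroRNAs guide a silencing complex to RNAs that pair with their seed, the bases near the 5′ end, and miR-16 is best known for lowering cyclins and other cell cycle RNAs. LncRNAs act as RNA rather than through a protein: MALAT1 gathers in nuclear speckles, which store splicing factors, and NEAT1 is the scaffold of paraspeckles. GAS5 and the SNHG genes carry small nucleolar RNAs (snoRNAs) in their introns, and their spliced remainder is often degraded by nonsense-mediated decay (NMD). TUG1 and OIP5-AS1 (also known as cyrano) are spliced, widely expressed lncRNAs, and H19 is an imprinted fetal RNA that is transcribed from the maternal copy and also encodes a microRNA.

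The sequences below show where the seed of miR-16 could pair with these RNAs. The mature miR-16 (miR-16-5p, from RefSeq on GRCh38) is encoded at chr13:50049027-50049048 on the minus strand (MIR16-1) and chr3:160404754-160404775 on the plus strand (MIR16-2), and capitals mark its seed, bases 2 to 8. The other lines show 30 bases of the longest transcript that GENCODE 29 (GRCh38) gives for the gene, with a seed match in capitals. Matches searched were TGCTGCT (7mer-m8), GCTGCTA (7mer-A1) and TGCTGCTA (8mer, which holds both of the others), on the transcript strand alone. The MALAT1 match is shown because it was the only 8mer among the 10 RNAs, and the other 5 to give 1 match for each further RNA that had any.
miR-16: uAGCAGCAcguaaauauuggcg
MALAT1: gcgacgagttgTGCTGCTAtcttagctgtc
NEAT1: cgccttcacgcTGCTGCTgttctcatgggg
SNHG1: cagtgatgaatTGCTGCTcaccagtgatga
SNHG12: ccgctagtcgcTGCTGCTggcgcgcactcg
TUG1: actctgttatcTGCTGCTtgtactggtgcc
OIP5-AS1: gaataaaactaGCTGCTAtggctgtaataa

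The matches shown lie in exons of these transcripts, at chr11:65497933-65497940 (MALAT1, plus strand), chr11:65442232-65442238 (NEAT1, plus), chr11:62853394-62853400 (SNHG1, minus), chr1:28581782-28581788 (SNHG12, minus), chr22:30970591-30970597 (TUG1, plus) and chr15:41304662-41304668 (OIP5-AS1, plus). MALAT1 and NEAT1 each had 3 matches, SNHG1 had 2, and SNHG12, TUG1 and OIP5-AS1 had 1 each. Over all annotated transcripts of a gene, TUG1 had 3 positions with a match, and the counts of the others were the same. The 3 matches of NEAT1 stood between bases 19435 and 21259 of its long transcript of 22743 bases. None of the 3 kinds was found in the longest transcript of GAS5, SNHG6, SNHG8 or H19. A match is common in RNAs of these lengths. Among genes whose longest transcript was at most 20% shorter or 25% longer, 97.4% held one for NEAT1, 81.6% for MALAT1, 81.9% for OIP5-AS1, 78.2% for TUG1, 51.3% for SNHG1 and 45.5% for SNHG12. The shares were 49.4% for H19, 41.0% for GAS5, 14.8% for SNHG8 and 13.8% for SNHG6. Such a match describes the letters and not binding, and the transcripts searched for GAS5, SNHG1 and SNHG12 are annotated as retaining an intron.

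The genes lie on 6 chromosomes in GRCh38. MALAT1 (ENSG00000251562.8, chr11:65497688-65506516) and NEAT1 (ENSG00000245532.8, chr11:65422774-65445540) are neighbours on the plus strand of chromosome 11, where SNHG1 (ENSG00000255717.6, chr11:62851988-62855914) and H19 (ENSG00000130600.18, chr11:1995176-2001470) lie on the minus strand. GAS5 (ENSG00000234741.7, chr1:173863900-173868882) and SNHG12 (ENSG00000197989.14, chr1:28578538-28583132) are on the minus strand of chromosome 1, and SNHG6 (ENSG00000245910.8) on that of chromosome 8. SNHG8 (ENSG00000269893.6, chr4:118278709-118279823), OIP5-AS1 (ENSG00000247556.6, chr15:41283990-41309737) and TUG1 (ENSG00000253352.9, chr22:30969245-30979395) are on plus strands. RefSeq places 11 snoRNA genes within GAS5, 9 within SNHG1, 4 within SNHG12 and 1 each within SNHG6 and SNHG8. The gene spans of GAS5, SNHG12 and OIP5-AS1 overlap, on the opposite strand, those of ZBTB37 (801 bases), TRNAU1AP (8 bases) and OIP5 (470 bases). Overlap of their exons was not computed. The strand setting of the read counting was not given in the sources used here, so any reads from overlapping exons could not be told apart.

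Values are the deposited log2 of normalized reads, and logFC is the miR-16 value minus the miR-CTR value of the same time. Early logFC averages 6 and 12 h, and late logFC 24 and 48 h. Genes past 0.5 in size, the limit the study used, were called. With 1 library per condition the differences at 1 time or in 1 window were not tested. The mean difference over the 4 shared times was tested with limma, with time as a block, a fit added after the data were seen. The counting standard errors (SE) and 95% intervals given cover the counting of reads only, not the spread between cultures. The libraries held 20250000 to 27350000 reads over the genes, with medians of 9.13 to 9.17. All 7 melanocyte lineage markers checked (among them PMEL, TYR and MLANA) were high in every library, between 12.29 and 17.88. All 5 miR-16 targets checked (CCND1, CCND3, WEE1, CDC25A and AMOT) were called lower in the late window, where 5.73% of all genes were. Their median logFC was -1.06. The study picked AMOT for follow-up partly by its fall in this time course. It also named CCND1, CCND3 and WEE1 in a target list chosen partly on these libraries. For these genes the check is therefore not independent of the data. Since these are bulk samples, fewer cells with an RNA and less of it per cell cannot be told apart.

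Abundance differed widely among the 10 RNAs, and H19 was not abundant. GAS5 had 5978 to 10835 reads per library and SNHG6 4062 to 8012, whereas SNHG12 had 138 to 477 and H19 7 to 33. By mean log2 value, 5.5% of all genes lay below H19, 34.2% below SNHG12 and 96.8% below GAS5. Per kb of the longest transcript, on the linear scale, SNHG6 had the highest level (8470 ± 979, SD over the 9 conditions), followed by GAS5 (4370 ± 1060) and SNHG8 (1660 ± 261). The ranges of these 3 over the libraries did not overlap with each other or with the next RNA. TUG1 (442 ± 50.7), SNHG1 (418 ± 73.3), OIP5-AS1 (355 ± 73.1), MALAT1 (237 ± 56.6), NEAT1 (154 ± 42.0) and SNHG12 (133 ± 45.2) came next, and the range of each overlapped with that of its neighbour in this order. H19 (10.2 ± 3.35) stood below all others. MALAT1 and the long form of NEAT1 end in a triple helix in place of a polyA tail, and how well polyA selection captured them was not tested. The level of NEAT1 was divided by the length of this long form. A level per kb of a shorter form was not computed, and it would be higher. The longest transcripts of GAS5 (1698 bases), SNHG1 and SNHG12 are annotated as retaining an intron, unlike that of SNHG6 (648 bases). Levels per kb of shorter spliced forms were not computed either, so the order of SNHG6 and GAS5 holds for the lengths used only.

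**Figure D1:**
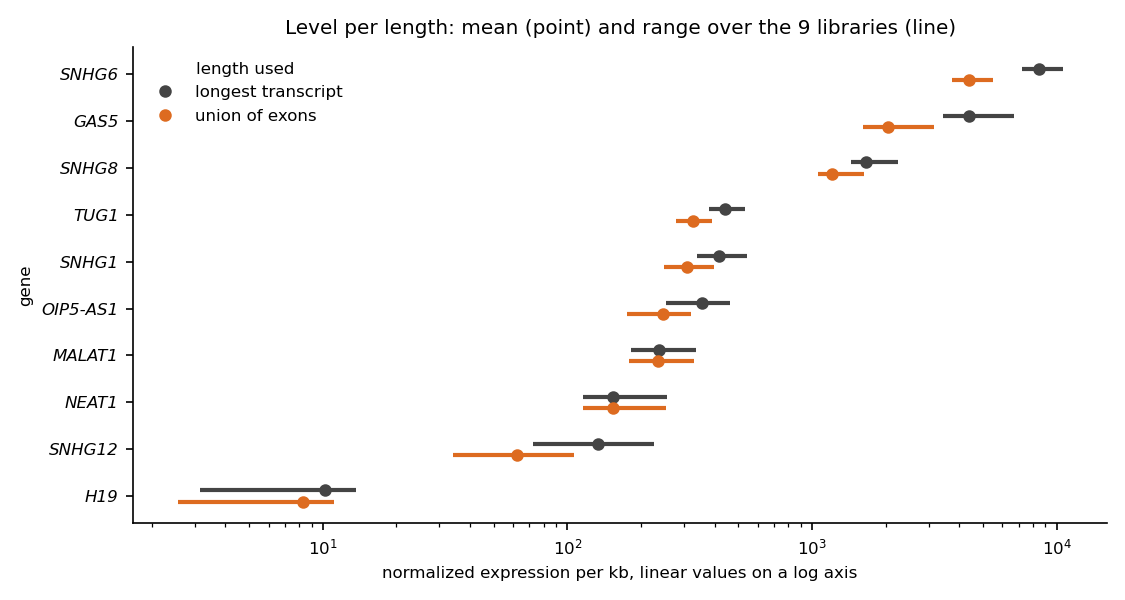
Level of each lncRNA per kb of length (horizontal log axis, linear normalized values), with the mean over the 9 libraries as a point and their range as a line, for the longest transcript (black) and for the union of all exons (orange). The order is the same for both lengths, from SNHG6 (8470 per kb of the longest transcript) to H19 (10.2). Both lengths include a retained intron for GAS5, SNHG1 and SNHG12.

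In the late window 1 of the 10 lncRNAs was called between the mimics: H19 was lower with miR-16. Over all genes, 13.5% were called late in either direction and 5.73% in the lower direction. The median late logFC of the 10 RNAs was 0.09, that of all genes 0.01, and 6 of the 10 were above 0. In the early window none was called, where 3.48% of all genes were. By single times, MALAT1 was called higher at 6 h (3.38% of all genes higher, 6.72% in either direction) and none at 12 h (5.84%). NEAT1 was called higher and H19 lower at 24 h (7.24% of all genes higher, 5.26% lower, 12.5% in all), and SNHG12 and H19 were called lower at 48 h (8.96% lower, 19.3% in all). The sign was the same at all 4 times for 5 of the 10: SNHG12 and TUG1 were lower each time, as were 16.7% of all genes, and MALAT1, GAS5 and OIP5-AS1 higher, as were 17.7%.

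Over the 4 times as pairs, 3 of the 10 passed limma's test at an adjusted p below 0.05 (Benjamini-Hochberg over all genes, 3 residual degrees of freedom), as did 10.7% of all genes. SNHG12 was lower with miR-16 (mean logFC -0.43, limma SE 0.086, adjusted p = 0.017), and GAS5 (0.20, SE 0.056, adjusted p = 0.049) and OIP5-AS1 (0.21, SE 0.059, adjusted p = 0.049) were higher, all in the same direction at 4 of 4 times. Over 8 other settings the adjusted p from limma ranged from 0.017 to 0.11 for SNHG12, from 0.040 to 0.26 for GAS5 and from 0.019 to 0.27 for OIP5-AS1. None of the 10 was called without the 12 h libraries or without the 24 h libraries, and GAS5 was not called without those of 48 h (adjusted p = 0.12). H19, whose difference lay at 2 of the 4 times, did not pass (mean logFC -0.66, SE 0.32, adjusted p = 0.19), nor did MALAT1 (0.27, adjusted p = 0.071). MALAT1 was called, however, after quantile normalization and without the 48 h libraries. Its adjusted p from limma ranged from 0.016 to 0.23 over the 8 other settings. For the other 5, limma's adjusted p lay between 0.16 and 0.95. The test asks for a difference shared by the 4 times and treats its change with time as error.

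**Figure D2:**
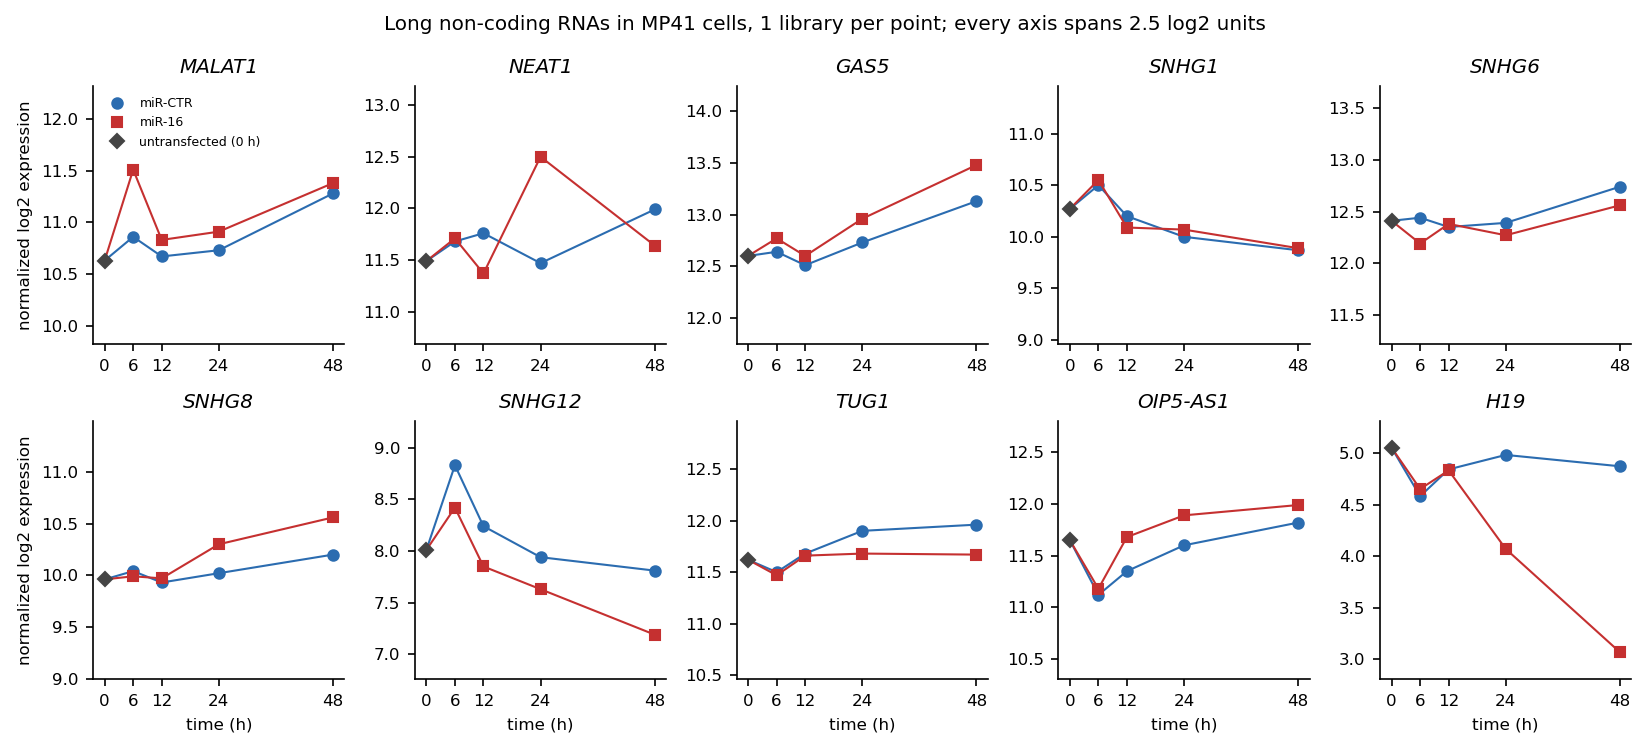
Normalized log2 expression (vertical axes, all of equal span) of the 10 lncRNAs against time in h, with 1 library per point: untransfected cells at 0 h (black), miR-CTR (blue) and miR-16 (red). H19 separates between the mimics at 24 and 48 h, NEAT1 peaks in the miR-16 library at 24 h (12.50), and GAS5 and OIP5-AS1 are higher at 48 than at 12 h with both mimics.

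H19 had the widest range of the 10, and its difference lay in the late libraries. It stood at 5.05 at 0 h, at 4.58, 4.84, 4.98 and 4.87 with miR-CTR (6, 12, 24 and 48 h), against 4.65, 4.83, 4.07 and 3.07 with miR-16. The 2 late miR-16 libraries were below all 7 others. In reads, these were 15 against 29 at 24 h and 7 against 33 at 48 h. In time order its logFC was 0.07, -0.01, -0.91 and -1.80, and the late mean was -1.36 (SE 0.38). The size depends on the constant added before the log: it was -0.89 with 10 added. It was -0.60 on reads scaled to library totals, where the added 1 stands for more reads. The 95% counting interval reached 0.00 at 24 h (from -1.96) and ran from -3.35 to -0.73 at 48 h. A lower late logFC was found for 0.1% of all genes. The study counted H19 among its RNAs bound by miR-16 and lower after it, a list chosen partly on these libraries, so that the low values here are no independent evidence for that list.

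NEAT1, the paraspeckle scaffold, differed between the mimics in a direction that turned with time. It stood at 11.49 at 0 h, at 11.68, 11.76, 11.47 and 11.99 with miR-CTR, against 11.71, 11.37, 12.50 and 11.64 with miR-16. The miR-16 library at 24 h, with 5516 reads against 2701, was the highest of all 9, and the 8 others lay between 11.37 and 11.99. In time order its logFC was 0.03, -0.39, 1.03 (95% counting interval 0.96 to 1.10) and -0.35. Its late mean of 0.34 (SE 0.024) thus rested on the 24 h libraries, and at 48 h alone the sign was the opposite. RN7SL2, a copy of the 7SL RNA of the signal recognition particle, which has no polyA tail, was also highest in that library, at 10.15 against 6.07 to 8.28 in the 8 others. RN7SL4P (7.31 against 3.65 to 5.39) and RN7SL5P (7.65 against 5.81 to 6.90) were likewise highest there, and RN7SK, another RNA without a tail, was not (4.65, against 3.35 to 4.84). These 4 RNAs were picked after their values were seen, and their part in the NEAT1 value was not tested.

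MALAT1, next to NEAT1 in the genome, did not share this peak. Its values were 10.63 at 0 h, 10.86, 10.67, 10.73 and 11.28 with miR-CTR, against 11.51, 10.83, 10.91 and 11.38 with miR-16. The 6 h miR-16 library and both 48 h libraries were the highest. The logFC was 0.65 at 6 h (95% counting interval 0.56 to 0.74, 2535 against 1950 reads), then 0.16, 0.18 and 0.10. The early mean was 0.41 (SE 0.032) and the late mean 0.14 (SE 0.031). Of 18 paraspeckle and nuclear speckle proteins, the partners of these 2 RNAs, 0 were called late in either direction, where 13.5% of all genes were. Their median was -0.09, with NONO at 0.24 and SON at -0.27 as the ends of the range. Of 5 genes that act on the 3′ end of MALAT1, RPP40, a subunit of RNase P, was called higher late (0.54), 8.94 against 8.12 at 48 h, and the 4 others were not called.

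Among the snoRNA hosts, the late values of GAS5 and SNHG8 were higher with miR-16 and those of SNHG12 lower, none past the limit of 0.5. GAS5 stood at 12.60 at 0 h, at 12.64, 12.51, 12.73 and 13.13 with miR-CTR, against 12.77, 12.60, 12.96 and 13.48 with miR-16. Both 48 h libraries were the highest of their series, and the logFC went from 0.13 and 0.09 to 0.23 and 0.35 (late mean 0.29, SE 0.016). In SNHG8 the values were 9.96 at 0 h, 10.04, 9.93, 10.02 and 10.20 with miR-CTR, against 9.99, 9.97, 10.30 and 10.56 with miR-16. The mimics were within 0.05 of each other early, and the logFC was 0.28 at 24 h and 0.36 at 48 h (late mean 0.32, SE 0.041).

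SNHG12, the host with the fewest reads, was lower with miR-16 at each time, and with miR-CTR it had the widest range over time of the 10. It stood at 8.01 at 0 h, at 8.83, 8.24, 7.94 and 7.81 with miR-CTR, against 8.42, 7.85, 7.63 and 7.19 with miR-16. Both series were highest at 6 h and lowest at 48 h. The logFC was -0.41, -0.39, -0.31 and -0.62 (95% counting interval -0.93 to -0.32 at 48 h, 138 against 262 reads), with a mean of -0.40 early (SE 0.081) and -0.47 late (SE 0.10). Its range over time with miR-CTR alone, 1.02, was wider than any of these differences.

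In SNHG1 and SNHG6 the mimics were within 0.25 of each other at each time. SNHG1 stood at 10.27 at 0 h, at 10.50, 10.20, 10 and 9.87 with miR-CTR, against 10.55, 10.09, 10.07 and 9.89 with miR-16, so that both series were lower at 48 h than at 6 h. All 4 counting intervals of its logFC included 0, and the late mean was 0.05 (SE 0.046). SNHG6 stood at 12.41 at 0 h, at 12.44, 12.35, 12.39 and 12.74 with miR-CTR, against 12.19, 12.38, 12.27 and 12.56 with miR-16. Its logFC was -0.25, 0.03, -0.12 and -0.18, with a late mean of -0.15 (SE 0.019).

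Of 33 symbols of further snoRNA hosts listed, which include older and newer names of the same gene, 23 were present. Of these, 1 was called late between the mimics, where 13.5% of all genes were called. This was SNHG20, higher with miR-16 (7.77 against 7.02 at 24 h and 7.86 against 7.0 at 48 h, late logFC 0.81). The median of the 23 was 0.20, and 22 of them were above 0, as were 7437 of all 14839 genes. The 14 NMD factors had a late median of -0.06 with none called, and UPF1, the central helicase of NMD, stood lowest at -0.34. The 23 measured 5′TOP RNAs, whose start carries a pyrimidine tract as that of GAS5 does, had a median of 0.06. Of these, PABPC1, the cytoplasmic polyA-binding protein, was called higher (0.58, 16.33 against 15.70 at 48 h).

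TUG1 and OIP5-AS1 differed late in opposite directions, both within the limit. TUG1 stood at 11.62 at 0 h, at 11.50, 11.68, 11.90 and 11.96 with miR-CTR, against 11.47, 11.66, 11.68 and 11.67 with miR-16. The 2 late miR-CTR libraries were above all 7 others, and the miR-16 series spanned 0.21. The logFC was -0.03, -0.02, -0.22 and -0.29 (late mean -0.26, SE 0.024). OIP5-AS1 stood at 11.65 at 0 h, at 11.12, 11.35, 11.60 and 11.82 with miR-CTR, against 11.18, 11.68, 11.89 and 11.99 with miR-16. Both series were lowest at 6 h, and the logFC was 0.06, 0.33, 0.29 and 0.17 (late mean 0.23, SE 0.024). OIP5, the overlapping gene on the other strand, was called lower with miR-16 late (-0.93), 7.19 against 7.92 at 24 h and 6.68 against 7.81 at 48 h.

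**Figure D3:**
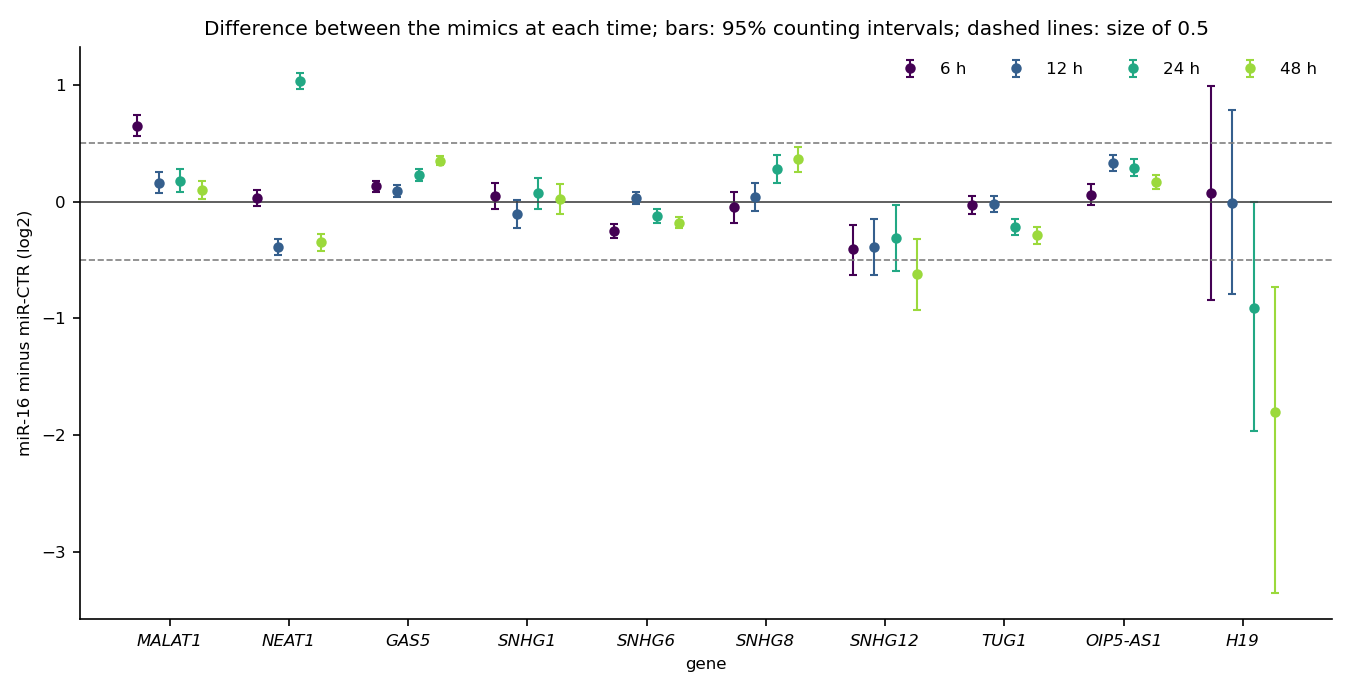
LogFC between miR-16 and miR-CTR (vertical axis, log2) of each lncRNA at 6, 12, 24 and 48 h (points from dark to light), with 95% counting intervals as bars and dashed lines at 0.5 in either direction. H19 at 24 and 48 h, SNHG12 at 48 h, NEAT1 at 24 h and MALAT1 at 6 h lie past the dashed lines, and the bars of H19 are the widest.

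Of 27 genes listed around the 10 loci, 20 were measured, and 3 were called late, all lower with miR-16, where 13.5% of all genes were called and 5.73% were lower. Besides OIP5 these were NUSAP1, a spindle protein gene near OIP5-AS1 (-0.61), and SLC3A2, an amino acid transporter subunit gene beside SNHG1 (-0.54). The other overlapping genes, ZBTB37 at the GAS5 locus (0.14) and TRNAU1AP at the SNHG12 locus (-0.05), were not called. Of 56 symbols of other well known lncRNAs listed, which include older and newer names of the same RNA, 37 were present, with a late median of 0.07. EBLN3 was called higher (0.54, 10.23 against 9.58 at 48 h) and DLEU2 lower (-0.67, 5.44 against 6.30 at 48 h). DLEU2, the host transcript of MIR16-1, had a mean below the minimum of 7 set for naming and is named after its values were seen.

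**Figure D4:**
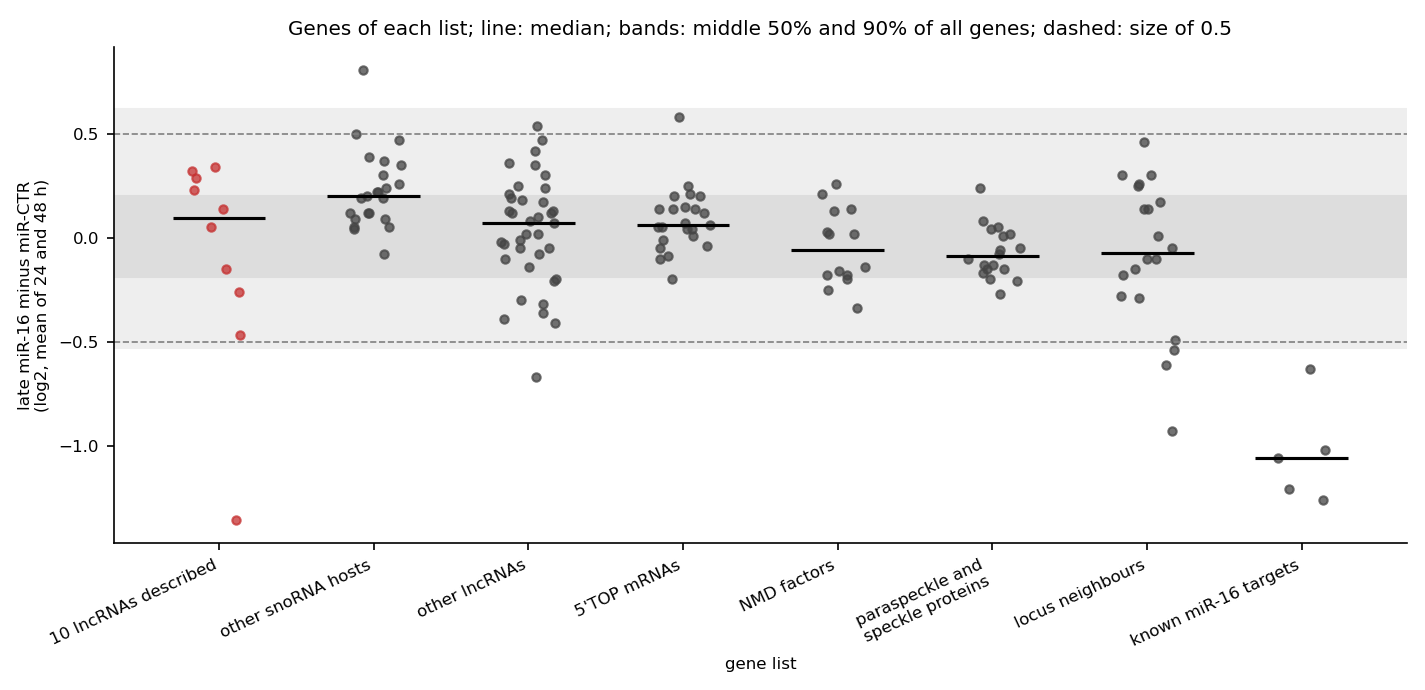
Late logFC between miR-16 and miR-CTR (vertical axis, log2, mean of 24 and 48 h) of the 10 lncRNAs (red) and of further gene lists (black), 1 point per gene, with the median of each list as a line. Grey bands hold the middle 50% and 90% of all 14839 genes (5th to 95th percentile, -0.53 to 0.62), and dashed lines mark 0.5 in size. H19 (-1.36) is the only one of the 10 below the bands, and the miR-16 targets checked (labelled known) lie between -1.26 and -0.63.

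Set against the untransfected library, 5 of the 10 RNAs were called late with miR-16 and 0 with miR-CTR, and this difference in counts was not tested. Both series share the 0 h library, and transfection and time in culture cannot be told apart here. With miR-CTR, 0 of the 10 were called late against 0 h, where 20.8% of all genes were, and SNHG12 alone was called early, at 0.53 (SE 0.11; 3.08% of all genes were called higher and 6.33% in all). At single times with miR-CTR, SNHG12 (0.82) and OIP5-AS1 (-0.53) were called at 6 h (7.51% of all genes), none at 12 h (8.55%), and MALAT1 (0.65) and GAS5 (0.53) at 48 h (29.3%). With miR-16, 5 were called late, against 25.8% of all genes (14.1% higher, 11.7% lower): MALAT1 (0.52), NEAT1 (0.58) and GAS5 (0.62) higher, SNHG12 (-0.60) and H19 (-1.48) lower. Of these, H19 alone passed the limit at both late times (-0.98 at 24 h and -1.98 at 48 h). NEAT1 stood at 1.01 and 0.15, MALAT1 at 0.28 and 0.75, GAS5 at 0.36 and 0.88, and SNHG12 at -0.38 and -0.82, so that each of these calls rested on 1 library. The late miR-CTR values of the same 5 were 0.38, 0.24, 0.33, -0.14 and -0.13. MALAT1 was also called early with miR-16 (0.54; 2.94% of all genes higher, 5.98% in all), and stood at 0.14 with miR-CTR.

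For the other 5 the late difference from 0 h stayed within the limit in both series. SNHG1 was lower late by similar amounts, -0.34 with miR-CTR and -0.29 with miR-16. SNHG8 stood at 0.15 and 0.47, TUG1 at 0.31 and 0.06, and SNHG6 at 0.16 and 0.01. OIP5-AS1 was below its 0 h value early, at -0.42 and -0.22, and above it late, at 0.06 and 0.29. Of the 23 further snoRNA hosts, 5 were called lower and 1 higher late with miR-CTR. Of all 14839 genes, 1453 were called lower and 1638 higher in this comparison.

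For the 3 RNAs with the widest range over the libraries, the genes with the most similar course were sought among those with a mean of at least 7. For H19 these were CD36, a fatty acid receptor gene (Pearson r = 0.992, n = 9 libraries), and DNM1L, a gene of mitochondrial fission (0.980). For SNHG12 they were AC093838.4 (0.982) and CLUH, which encodes a binding protein of mitochondrial mRNAs (0.977), and for NEAT1 RN7SL2 (0.907) and XAB2, a splicing factor gene (0.871). By rank (Spearman) the correlation was 0.95 for CD36, 0.745 for DNM1L, 1.0 for AC093838.4, 0.967 for CLUH, 0.75 for RN7SL2 and 0.8 for XAB2. A Pearson r above 0.9 was reached by 336 genes for SNHG12, 94 for H19 and 1 for NEAT1. These are descriptions over 9 libraries that share mimic and time, picked as the highest among 11169 genes or more, and RN7SL2 and NEAT1 share their highest library.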

How the data were processed

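MP41 cells were measured in 9 libraries of polyA RNA: 0 h, and 4 times with each of miR-16 and miR-CTR. Per the submitters' processing notes, reads were checked with FastQC, aligned with STAR 2.4.0a and counted with featureCounts (Subread 1.5.0-p3) on hg38 (GRCh38). Annotation, strand setting and normalization tool were not given in the sources used here. The authors deposited normalized log2 values with 2 decimals and decimal commas. In every library 100% of the low values (up to 20 on the linear scale after subtracting 1; tolerance 0.01 log2) were whole multiples of 1 step, so that the deposited values are log2(reads/size factor + 1), and reads were recovered by dividing by the step. Since the deposited values have 2 decimals, high read counts recovered in this way are approximate. The column codes were matched to the times by their shared order.

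No further normalization was applied. Differences past 0.5 were called. With 1 library per condition, single times and windows were not tested; the mean over the 4 times was tested with limma 3.58.1 (R 4.3.3) on the log2 values of the 8 transfected libraries, with time as a block and a trend in the variance, added after the data were seen. Nothing in the labels says that libraries of 1 time share more than the time. Counting SEs came from recovered reads, and counting intervals of ratios were exact 95% binomial (Clopper-Pearson). H19 ratios from reads alone differ slightly from logFC, which includes the added 1. Positions, lengths and seed matches came from GENCODE 29, and the miRNA and the snoRNA genes from RefSeq on GRCh38, joined by symbol (13015 genes, 87.7%, matched GENCODE; 56.4% of these held a match). Named genes were all 10 lncRNAs; of each list, at most 4 genes past 0.5 late with a mean of at least 7, and overlapping neighbours; and for 3 lncRNAs the 2 genes most alike. The lncRNAs and lists were chosen with earlier results of these data known. Alternatives were another normalization, pseudocount, threshold, filter, reference, window and length. Calling, the limma fit and read recovery (exact recovery at low counts only) were tested on simulated data. These had counting noise alone and planted differences that were the same at all times. They held no spread between cultures and no change with time, so they cannot show how limma's p-values hold in the real libraries. Scripts used scipy 1.17.1, numpy 2.4.6 and pandas 2.3.3 under Python 3.11.15, and figures matplotlib 3.10.9.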

Additional observations from a re-analysis of the deposited data

Results flagged for a closer look

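NEAT1 was set apart because its difference between the mimics had opposite signs at neighbouring times: it was -0.39, 1.03 and -0.35 at 12, 24 and 48 h. With 1 library at each time and mimic, the change of sign was not tested. The counting intervals of these values exclude 0, but they do not cover the spread between cultures. The 24 h miR-16 library also held the highest values of RN7SL2 (10.15), RN7SL4P (7.31) and RN7SL5P (7.65), whose part in the NEAT1 value was not tested.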

How the results depend on the processing

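The labels give no replicate numbers, and the libraries were paired by time alone. With time as a block (limma over the 4 times) 3 of the 10 RNAs were called, against 1 in the late window; without the 12 h libraries the count was 0, with 381 of all genes called against 1581, and without the 24 h libraries it was 0, with 0 of all genes called (at an unadjusted p below 0.05 limma gave 7 and 5 of the 10, and 3942 and 2496 of all genes). Under the other settings it lay between 3 and 4. Quantile normalization added MALAT1, and without the 48 h libraries MALAT1 was called and GAS5 was not. Of 160 values of single RNAs without a test, 158 kept their side of the limit, and no called value reversed. The sign was kept by 158 too, the exceptions being SNHG8 early between the mimics (-0.01), which was 0.01 with medians set equal and 0.00 after quantile normalization. The late logFC of H19 (-1.36) was -0.89 with 10 added and -0.60 on library totals. The setting on library totals changed the constant as well as the scaling: its added 1 stood for about 20 to 27 reads. The separate parts of scaling and constant in its results were not tested. SNHG12 passed the limit late after quantile normalization (-0.51). It lost its early call against 0 h on reads scaled to library totals with this larger constant (0.49). Of the 10 RNAs, the late count between the mimics of 1 became 2 (SNHG12 and H19) after quantile normalization. It became 0 without the lowest 25% of genes by mean, which removed H19. Of the 11130 genes left by this filter, 535 were called lower and 441 higher. With the 0 h library as reference the count was 5, where 25.8% of all genes were called. The late count with miR-CTR against 0 h went from 0 to 5 with the miR-16 libraries in its place. The early count between the mimics went from 0 to 1 (MALAT1) against 0 h, and the early count with miR-CTR against 0 h from 1 to 0 on reads scaled to library totals, at a limit of 1.5-fold, or when both times had to pass. Windows split after seeing the data gave, between the mimics, 2 at 24 h (NEAT1 and H19), 2 at 48 h (SNHG12 and H19) and 1 at 6 h (MALAT1). With miR-CTR against 0 h they gave 2 at 48 h (MALAT1 and GAS5), 2 at 6 h (SNHG12 and OIP5-AS1) and 0 at 12 h, where 29.3%, 7.51% and 8.55% of all genes were called. Quantile normalization moved the late calls over all genes from 851 lower and 1151 higher to 1002 and 996. The setting on library totals, with its larger constant, gave 545 and 719. With 10 added and no new scaling the calls were 714 lower and 927 higher. Per kb of the union of exons, levels were 4400 for SNHG6, 2040 for GAS5, 1210 for SNHG8, 325 for TUG1, 308 for SNHG1, 247 for OIP5-AS1 and 62.3 for SNHG12, in the same order. The union also counts transcripts that retain an intron, so it is no check on the order of spliced forms. Depth limits H19 (7 to 33 reads) most.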
